A study of Mus musculus with 12 samples.

Results

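Fatty acid oxidation enzymes were followed by 9 listed genes, Slc25a20, Cpt1a, Cpt2, Acadvl, Acadl, Acadm, Hadha, Hadhb and Ech1, each read by the probe set that the array annotation assigns to that gene alone and that had the highest mean signal over the 12 arrays. Of the 9 genes, 8 had such a probe set, out of 17097 genes in all. The expression of Hadha was not analysed here. The study hybridised RNA of the mouse colon carcinoma line CT26 in 4 groups of 3 arrays. Control cells (CTR) grew for 48 hours in medium with 1.0 g/L glucose and 10% fetal bovine serum, and short-term starvation cells (STS) for 48 hours in 0.5 g/L glucose and 1% serum. OXP cells were kept in the control medium and STS+OXP cells in the starvation medium, and both received 10 µM oxaliplatin, a platinum drug that forms DNA adducts, 24 hours after the start. The concentration is that of the sample labels, and the study's legends for its expression data name a higher one. All 4 groups are the same cell line, and the sources used here leave unstated if replicate arrays stem from different cultures. The p-values therefore measure the spread between these arrays, which may be technical. The comparisons ask whether starvation, the drug and their combination changed the transcripts for the oxidation of fatty acids.

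Mitochondrial beta-oxidation shortens fatty acids that have been activated to acyl-CoA. Carnitine palmitoyltransferase 1 on the outer mitochondrial membrane exchanges CoA for carnitine and is the regulated step of entry, the carrier encoded by Slc25a20 moves acylcarnitine across the inner membrane, and carnitine palmitoyltransferase 2 restores the acyl-CoA. Acyl-CoA dehydrogenases graded by chain length then open each cycle, the trifunctional protein completes it for long chains, and the genes as a group are textbook targets of the PPAR nuclear receptors in fasted liver and muscle.

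The promoters of 3 members are shown, because Slc25a20 had the largest difference of the members, Cpt1a encodes the regulated step of entry and Acadl went the opposite way from the rest in STS+OXP. Each is the 250 bases before the annotated start in the mouse build GRCm38.p6 of RefSeq, read 5′ to 3′ on the strand of the gene. Slc25a20 is on the plus strand at chr9:108661886-108662135, Cpt1a on the plus strand at chr19:3323051-3323300, and Acadl on the minus strand at chr1:66863310-66863559. The Cpt1a start of the promoter table lies inside the annotated gene, which spans bases 3322326 to 3385735. Capitals mark the GC box GGGCGG or its complement CCGCCC and, in Cpt1a, the nuclear receptor half-site AGGTCA read on the other strand as TGACCT.
Slc25a20: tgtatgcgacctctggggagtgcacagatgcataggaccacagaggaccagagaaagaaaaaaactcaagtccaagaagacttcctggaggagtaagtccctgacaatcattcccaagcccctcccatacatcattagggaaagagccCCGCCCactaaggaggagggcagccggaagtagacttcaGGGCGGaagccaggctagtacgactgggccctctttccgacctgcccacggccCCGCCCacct
Cpt1a: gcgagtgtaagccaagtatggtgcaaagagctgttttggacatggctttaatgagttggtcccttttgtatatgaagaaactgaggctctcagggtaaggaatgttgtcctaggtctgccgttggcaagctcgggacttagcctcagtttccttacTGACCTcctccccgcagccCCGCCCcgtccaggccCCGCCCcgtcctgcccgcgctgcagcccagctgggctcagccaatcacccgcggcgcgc
Acadl: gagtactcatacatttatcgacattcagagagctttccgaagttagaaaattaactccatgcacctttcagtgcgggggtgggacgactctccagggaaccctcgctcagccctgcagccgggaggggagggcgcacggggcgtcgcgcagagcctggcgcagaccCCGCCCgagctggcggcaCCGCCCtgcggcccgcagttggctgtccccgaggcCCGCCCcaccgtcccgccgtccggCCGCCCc

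All 9 genes, Hadha included, had a promoter entry. A GC box was present on either strand in 7 of the 9 windows, against 32.7% of all 32851 windows of this length. It occurred 3 times in Slc25a20 and 4 times in Acadl, so the members with the largest rise and with a fall both carried it. Hadha on chromosome 5 and Hadhb lie head to head with 272 bases between them, so their windows cover mostly the same DNA and the GC box of Hadha is one of those of Hadhb read on the other strand. The half-site AGGTCA was present in Cpt1a, Acadm and Acadvl, 3 of 9, against 14.0% of all windows. Neither its direct repeat spaced by 1 base, the form bound by PPAR with RXR, nor the longer site TNAAGGTCA bound by the estrogen-related receptors was present in any of the 9, and these were found in 0.0335% and 1.14% of all windows. TGCGCA, the core of the NRF1 site, was in Acadm alone (6.43% of all windows), and CCAAT was in Cpt1a alone (33.8%). These are matches of letters within 250 bases and say nothing of binding.

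The values are RMA signals on a log2 scale, on which a difference of 1 is a doubling. They can be compared between arrays for one gene but not between genes. As a background level the brightest of 22 nonspecific control probe sets was taken on each array, which lay between 3.21 and 3.72, and all 8 members were above it on every array. OXP replicate 1 stood apart in RNA quality, since its Gapdh control probe sets were 3.85 log2 units brighter at the 3′ end than at the 5′ end, compared with -0.117 to 0.284 on all 11 remaining ones. Replicate 2 of the OXP group was nearer to the STS+OXP arrays (root mean square difference 0.173 over all genes) than to the other OXP arrays (0.345 and 0.251). Among the 3 OXP arrays, replicate 1 was the highest for 6 of the 8 members and replicate 2 the lowest for 7 of 8. The share of all genes with this order was not computed, and its relation to RNA quality was not tested.

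Slc25a20 (chromosome 9, 108662136 to 108684642) encodes the carnitine-acylcarnitine carrier of the inner membrane. Its signal was 5.67, 5.73 and 5.79 in CTR, 6.13, 6.01 and 5.99 in STS, 7.294, 7.003 and 7.020 in OXP, and 6.80, 7.14 and 6.74 in STS+OXP. CTR was below STS and STS below both drug groups with no overlap, whereas OXP and STS+OXP overlapped. OXP exceeded CTR by 1.38 ± 0.11 on the log2 scale (SE, n = 3 arrays per group; 2.60-fold, limma adjusted p = 3.14e-07), the largest difference of the members, and STS+OXP exceeded CTR by 1.16 (2.24-fold, limma adjusted p = 1.55e-06). The STS difference of 0.31 did not pass the threshold (limma adjusted p = 0.067). A second probe set that shares the gene gave 1.29 for OXP and 1.03 for STS+OXP, but 0.08 for STS.

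Cpt1a (chromosome 19), the liver form of carnitine palmitoyltransferase 1, ran in the same order. The signal was 7.22, 7.15 and 7.19 in CTR, 7.44, 7.31 and 7.43 in STS, 7.93, 7.86 and 8.05 in OXP, and 7.90, 7.73 and 7.91 in STS+OXP. As for the carrier, every STS array lay above every CTR array and below every array with oxaliplatin, and the drug groups overlapped. Cpt1a rose by 0.76 ± 0.08 in OXP (SE, n = 3; 1.69-fold, limma adjusted p = 3.88e-06) and by 0.66 in STS+OXP (1.58-fold, limma adjusted p = 1.47e-05), with 0.20 in STS (limma adjusted p = 0.0983).

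Cpt2 (chromosome 4, 107903982 to 107923589), the carnitine palmitoyltransferase of the inner membrane, had a wider spread. It read 6.51, 6.65 and 6.44 in CTR, 6.74, 6.53 and 6.40 in STS, 7.36, 6.93 and 7.02 in OXP, and 6.85, 6.77 and 6.84 in STS+OXP. CTR and STS overlapped throughout, and the 3 OXP arrays lay above all others. The rise in OXP was 0.57 ± 0.11 (SE, n = 3; 1.49-fold, limma adjusted p = 0.00134), and the STS+OXP value of 0.29 did not pass the threshold (limma adjusted p = 0.0755). The same difference was called without OXP replicate 1, which enters the fit through the shared spread (limma adjusted p = 0.0202), and the difference between the shuttle genes was not tested.

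**Figure D1:**
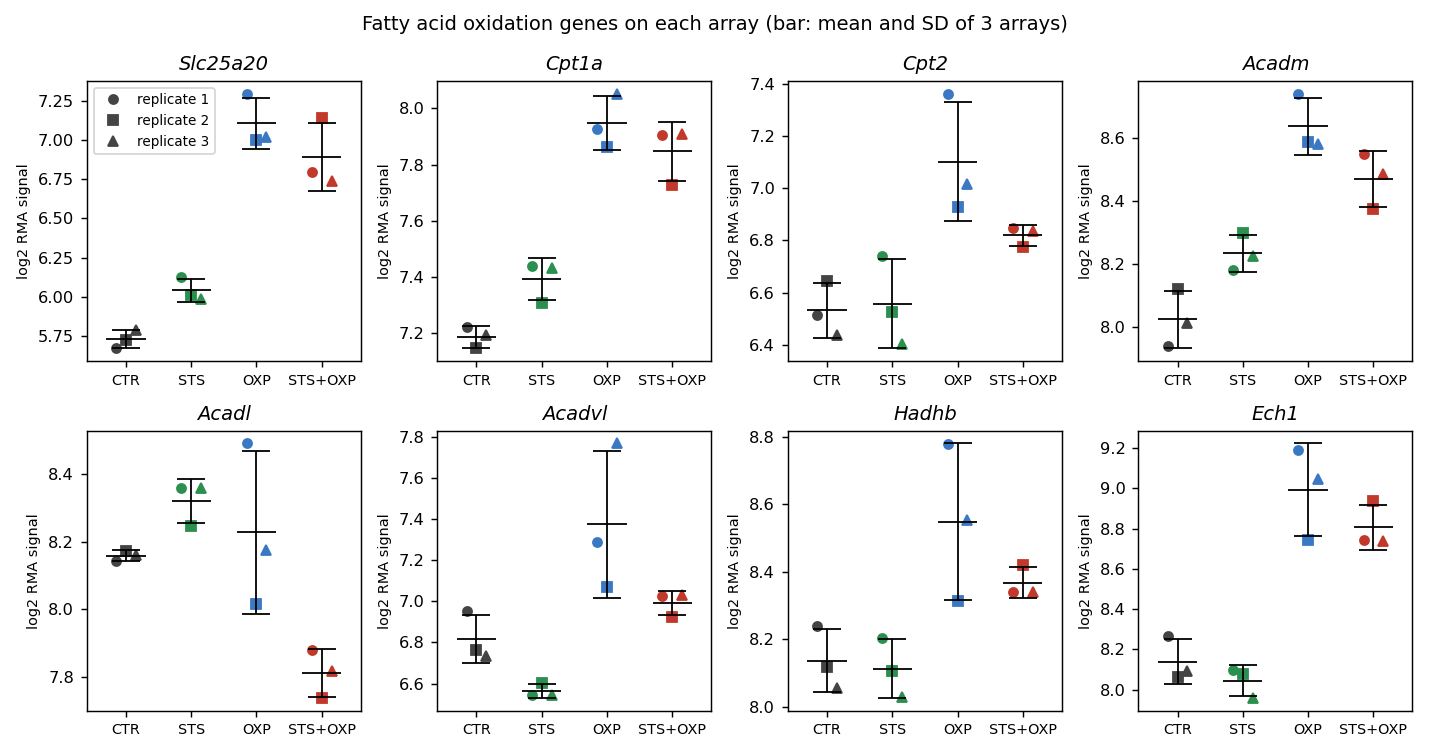
Signal of the 8 measured fatty acid oxidation genes on each array (vertical axes, log2 RMA signal, a separate scale for each gene) in the groups CTR, STS, OXP and STS+OXP; circles, squares and triangles are replicates 1, 2 and 3, and the bars are the mean and SD of 3 arrays. Oxaliplatin groups sit highest for 7 of the genes, while Acadl is lowest in STS+OXP.

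Of the acyl-CoA dehydrogenases, Acadvl (chromosome 11, 70010183 to 70015428) acts on very long chains. The signal was 6.95, 6.77 and 6.73 in CTR, 6.54, 6.60 and 6.54 in STS, 7.29, 7.07 and 7.77 in OXP, and 7.03, 6.92 and 7.03 in STS+OXP. The STS arrays were the lowest and the OXP arrays the highest with no overlap, although OXP also had the widest spread of any group of any member (SD 0.36, n = 3). Acadvl rose by 0.56 ± 0.14 in OXP (SE; 1.47-fold, limma adjusted p = 0.00539). The other comparisons with CTR did not pass the threshold, with -0.25 in STS (limma adjusted p = 0.258) and 0.18 in STS+OXP (limma adjusted p = 0.407). Replicate 3 was the highest of the OXP arrays, 0.95 above the CTR mean, and without it the rise was 0.36 and still called.

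Acadm (chromosome 3, 153922353 to 153944643), the medium-chain enzyme, was steadier. It read 7.94, 8.12 and 8.01 in CTR, 8.18, 8.30 and 8.22 in STS, 8.74, 8.59 and 8.58 in OXP, and 8.55, 8.37 and 8.48 in STS+OXP. The 4 groups stood in the order CTR, STS, STS+OXP and OXP with no overlap between neighbours. Acadm rose by 0.61 ± 0.08 in OXP (SE, n = 3; 1.53-fold, limma adjusted p = 3.03e-05) and by 0.45 in STS+OXP (1.36-fold, limma adjusted p = 0.000486), while neither the step from CTR to STS (0.21, limma adjusted p = 0.091) nor that from STS+OXP to OXP passed the threshold.

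Acadl (chromosome 1, 66830839 to 66863309), the long-chain enzyme, did not follow the others. Its signal was 8.14, 8.17 and 8.16 in CTR, 8.36, 8.25 and 8.36 in STS, 8.49, 8.02 and 8.18 in OXP, and 7.88, 7.74 and 7.82 in STS+OXP. All 3 STS+OXP arrays lay below all 9 others, STS lay above CTR without overlap, and the OXP arrays were spread across CTR and STS. Acadl fell in STS+OXP by 0.35 ± 0.10 on the log2 scale relative to CTR (SE, n = 3; 1.27-fold lower, limma adjusted p = 0.0168). In OXP the difference from CTR was 0.07, with a 95% interval of -0.149 to 0.286, and in STS it was 0.16, with an interval of -0.055 to 0.380. The fall against CTR lost its call without STS+OXP replicate 2 (-0.31, limma adjusted p = 0.0666) and in the unequal-variance test (adjusted p = 0.0544). It also did so when the gene's probe sets were averaged (-0.05, limma adjusted p = 0.703), where the second probe set has a mean of 2.66, below the background level.

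Hadhb (chromosome 5, 30155253 to 30184593) encodes the thiolase subunit of the trifunctional protein. It read 8.24, 8.12 and 8.06 in CTR, 8.20, 8.11 and 8.03 in STS, 8.78, 8.31 and 8.55 in OXP, and 8.34, 8.42 and 8.34 in STS+OXP. CTR and STS overlapped over most of their ranges, and every array with oxaliplatin lay above both. Hadhb rose by 0.41 ± 0.10 in OXP (SE, n = 3; 1.33-fold, limma adjusted p = 0.00692), the smallest of the 7 rises, with 0.23 in STS+OXP (limma adjusted p = 0.12). The latter value was called without OXP replicate 1 (limma adjusted p = 0.0431) or OXP replicate 2 (limma adjusted p = 0.0462). A second probe set of Hadhb, dimmer with a mean of 3.92, gave 0.14 for OXP, 0.13 for STS+OXP and 0.08 for STS. The array annotation gave no probe set to Hadha alone, the partner subunit of Hadhb.

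Ech1 (chromosome 7, 28825338 to 28832239) encodes a dienoyl-CoA isomerase that prepares unsaturated fatty acids for the cycle. Its signal was 8.27, 8.06 and 8.09 in CTR, 8.10, 8.08 and 7.96 in STS, 9.19, 8.74 and 9.05 in OXP, and 8.74, 8.94 and 8.74 in STS+OXP. Each of the 6 arrays with oxaliplatin lay above each of the 6 without it. Ech1 had the second largest rise in both drug groups, 0.85 ± 0.11 in OXP (SE, n = 3; 1.81-fold, limma adjusted p = 2.97e-05) and 0.67 in STS+OXP (1.59-fold, limma adjusted p = 0.000263), and -0.10 in STS (limma adjusted p = 0.643).

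Counted together, 7 of the 8 members rose in OXP compared with CTR and none fell, where 17.5% of all genes were called higher and 13.9% lower. The median difference of the members was 0.59, against -0.01 over all genes. The members were chosen with earlier results of these data known, so the comparison with all genes only describes them. The same 7 genes kept their calls whichever single array was left out, OXP replicates 1 and 2 included. The unequal-variance test named in the methods for cell experiments, run on the same arrays, called 3 members (Slc25a20, Cpt1a and Acadm). The share of all genes called by that test is not given here, so this count has no background to be read against.

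In STS+OXP compared with CTR, 4 members rose (Slc25a20, Cpt1a, Acadm and Ech1) and Acadl fell, against a background of 16.4% of all genes higher and 14.2% lower. The median difference of the members was 0.37, against 0.00045 over all genes. Both drug comparisons use the same 3 CTR arrays, so the values for a gene in them are not independent. Side by side, OXP and STS+OXP gave 1.38 and 1.16 for Slc25a20, 0.76 and 0.66 for Cpt1a, 0.57 and 0.29 for Cpt2, and 0.85 and 0.67 for Ech1. The value in the combination was the lower for each of the 8 members.

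Starvation alone called none of the 8 members by limma, with 9.75% of all genes called higher and 6.74% lower. At an unadjusted p under 0.05 there were 3 members, namely Slc25a20, Cpt1a and Acadm, each with its 3 STS arrays above its 3 CTR arrays and a difference between 0.20 and 0.31, and 4641 of all 17097 genes. The median of the members was 0.09, and that of all genes was -0.03. Of the remaining members, Acadl was positive, Acadvl, Hadhb and Ech1 were negative, and Cpt2 was near 0 (0.02). The count was between 0 and 1 with any single array left out, and Slc25a20 was the member called without OXP replicate 1 or without STS+OXP replicate 2.

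**Figure D2:**
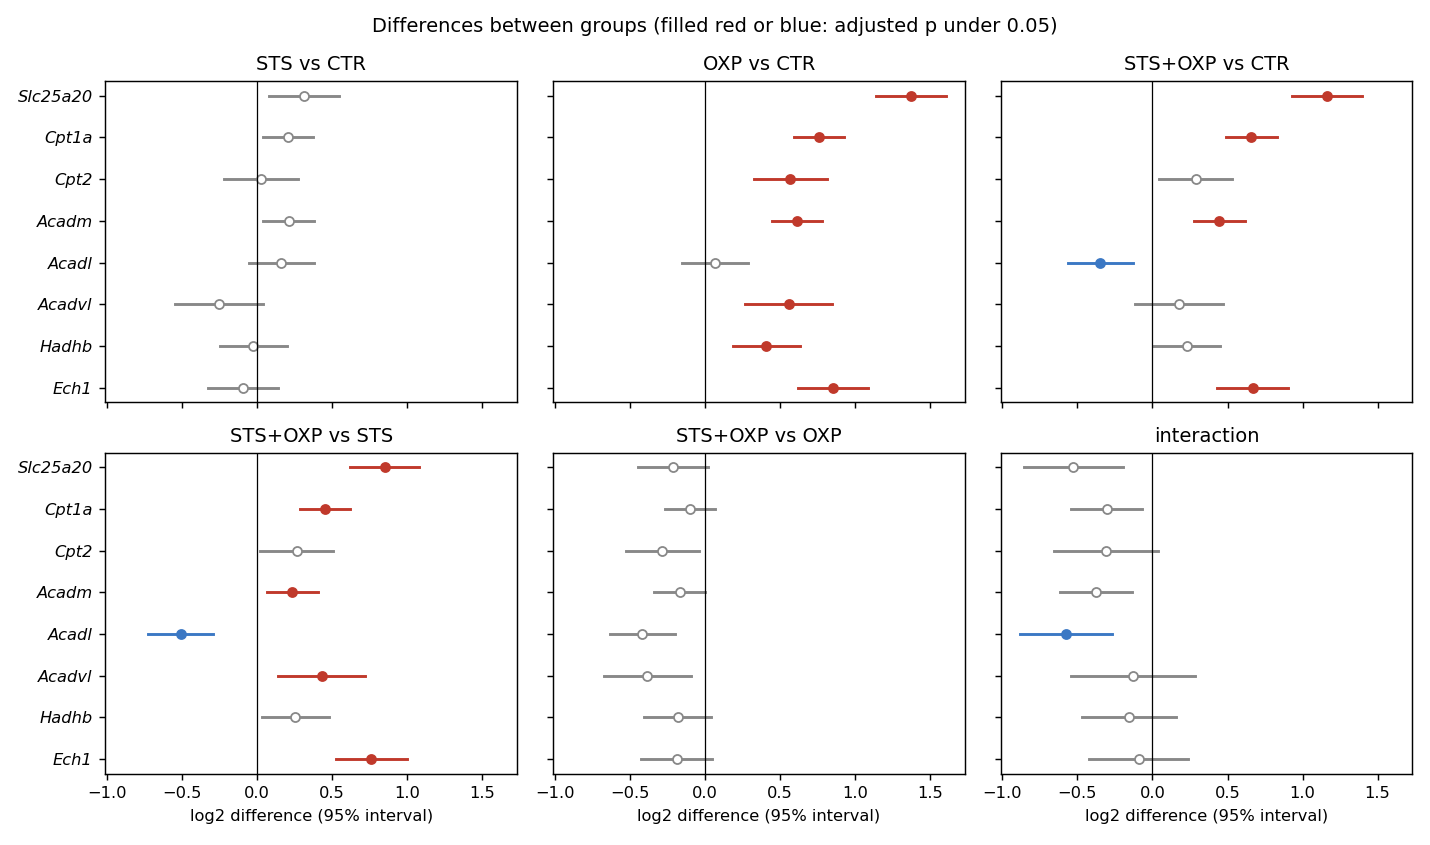
Log2 difference of each member between groups (horizontal axis) with its 95% interval from limma, in 6 panels; filled red points are higher and filled blue points lower at an adjusted p under 0.05 over all genes, and open grey points were not called. The interaction panel is the STS effect with OXP minus the STS effect without it, and all 8 members lie below 0 there and in STS+OXP vs OXP.

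Within starved cells, oxaliplatin was followed by higher signals for 5 members, Slc25a20 (0.85 ± 0.11, limma adjusted p = 5.2e-05), Ech1 (0.76), Cpt1a (0.45), Acadvl (0.43) and Acadm (0.24), and by a fall of Acadl of 0.51 ± 0.10 (SE, n = 3; 1.42-fold lower, limma adjusted p = 0.00203). The background was 10.8% of all genes higher and 11.2% lower. With its probe sets averaged, Acadl was at -0.17 and no longer called (limma adjusted p = 0.0865). Slc25a20 lost its call in the unequal-variance test (adjusted p = 0.0766). Cpt2 (0.26) and Hadhb (0.25) were positive without passing the threshold. The call of Acadm was near the threshold (limma adjusted p = 0.046) and was lost under 10 of the other settings, among them leaving out any array of STS, STS+OXP replicate 1 or STS+OXP replicate 3. The call of Acadvl (limma adjusted p = 0.0357) was lost without any one array of STS or STS+OXP, with an adjusted p between 0.0629 and 0.104. The members called ranged from 4 to 8 with one array left out.

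Adding starvation to oxaliplatin, that is STS+OXP compared with OXP, called no member by limma, and it called 0.00585% of all genes higher and 0.00585% lower, 1 gene each. At an unadjusted p under 0.05 there were 3 members and 2160 genes of all. All 8 members were lower in STS+OXP, with a median of -0.20 against a median of all genes of -0.00077. The lowest was Acadl at -0.42, with a 95% interval of -0.634 to -0.198 (limma adjusted p = 0.257), followed by Acadvl at -0.38 (limma adjusted p = 0.283) and Cpt2 at -0.28 (limma adjusted p = 0.341). For Slc25a20 the difference was -0.21 and for Cpt1a -0.10. OXP replicate 2 decided this count. Without it Acadl (-0.52, limma adjusted p = 0.00482) and Acadvl (-0.54, limma adjusted p = 0.0172) were lower, while 2.38% of all genes were then called higher and 4.44% lower. The OXP group then held replicates 1 and 3, and replicate 1 was the array set apart by RNA quality. Acadl read 8.49 on replicate 1 and 8.18 on replicate 3. With replicate 3 as the only OXP array, the difference was -0.36 for Acadl and -0.78 for Acadvl.

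Whether starvation acted differently with and without the drug was tested by the interaction, the STS effect with OXP minus the STS effect without it. Acadl was lower there, by -0.58 ± 0.14 (SE, limma adjusted p = 0.0234), 1 of 8 members, against 2.53% of all genes higher and 5.76% lower. It stood 0.16 above CTR in STS, and in STS+OXP it was 0.42 below OXP. All 8 members had a negative interaction, with a median of -0.31 against 0.03 over all genes. Slc25a20 (-0.53, limma adjusted p = 0.0504) and Acadm (-0.38, limma adjusted p = 0.0532) were just outside the threshold. The call of Acadl was lost without any one of CTR replicates 1 and 3, STS replicates 1 and 3, or STS+OXP replicates 2 and 3, with an adjusted p between 0.0533 and 0.0651 and a value between -0.58 and -0.54. It was lost as well when the gene's probe sets were averaged (-0.25, limma adjusted p = 0.141), which brings in the probe set below background.

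**Figure D3:**
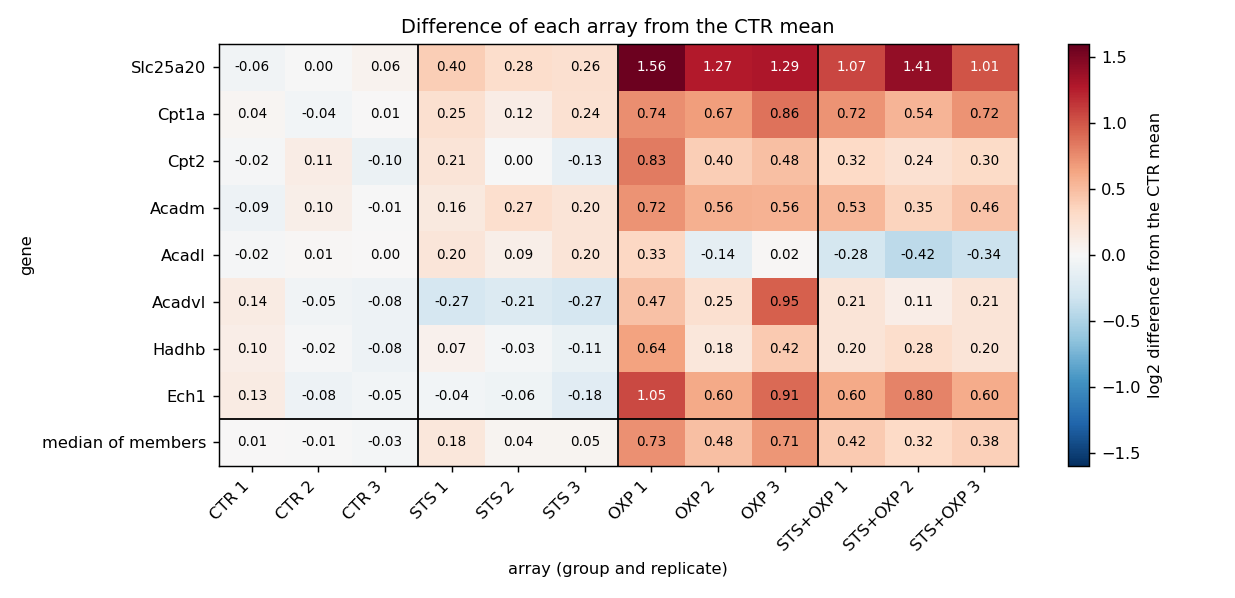
Difference of each array (horizontal axis, group and replicate) from the CTR mean for the 8 members and their median (vertical axis), on the log2 scale given by the colour bar; red is above and blue below the CTR mean. The median of the members is 0.73, 0.48 and 0.71 on the OXP arrays and 0.42, 0.32 and 0.38 on the STS+OXP arrays.

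Read across the 12 arrays, the 7 members other than Acadl moved together, with a Pearson's r from 0.646 (Acadvl with Acadm) to 0.941 (Slc25a20 with Ech1). Acadl had an r of -0.319 to 0.038 with them. These correlations describe 12 arrays that share their 4 groups and are not 12 independent points. On single arrays the median of the members above the CTR mean was 0.73, 0.48 and 0.71 in OXP, and 0.42, 0.32 and 0.38 in STS+OXP. Every OXP array was thus above every STS+OXP array, and OXP replicate 2, which resembled the combination over all genes, was nearest to it. In STS the medians were 0.18, 0.04 and 0.05.

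The genes whose pattern was most like a member over the 12 arrays were ranked by Pearson's r. For Slc25a20 they were Lxn (0.993) and Ift27 (0.992), for Cpt1a Aldh3a1 (0.988) and Map1lc3a (0.984), and for Ech1 Ndufa11 (0.994) and Vamp8 (0.994). Hadhb was most like Ndufb7 (0.982) and Mien1 (0.974), Acadm like Stambp (0.993) and Ott (0.986), and Acadvl like Tmem43 (0.975) and Ptges (0.966). Cpt2 was most like Gstm5 (0.966) and Rab21 (0.960), with lower values than for most members. Acadl was most like Ube2e2 (0.963) and Sms (0.949).

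Other genes listed for mitochondrial beta-oxidation, 18 of 20 having a probe set, were called in both directions. The shares of all genes called are the background for this and the following lists. They were 9.75% higher and 6.74% lower in STS, 17.5% and 13.9% in OXP, and 16.4% and 14.2% in STS+OXP. In OXP 10 rose and 2 fell with a median of 0.30, in STS+OXP 7 rose and 4 fell with a median of 0.20, and in STS none rose and 3 fell with a median of -0.10. Acad11, an acyl-CoA dehydrogenase, had the largest change, rising by 1.62 in OXP (3.08-fold, limma adjusted p = 3.32e-06) and by 1.11 in STS+OXP (2.16-fold, limma adjusted p = 0.000111). Acot13, a thioesterase that splits acyl-CoA, rose by 1.07 in OXP (limma adjusted p = 1.71e-07) and 0.93 in STS+OXP. Decr1, the dienoyl-CoA reductase that like Ech1 handles unsaturated chains, rose by 0.98 in OXP (limma adjusted p = 7.16e-05) and 0.71 in STS+OXP. Those that fell in OXP were Echs1, the short-chain enoyl-CoA hydratase (-0.66, limma adjusted p = 0.000341), and Acad9 (-0.25, limma adjusted p = 0.0482), which also serves the assembly of respiratory complex I. Etfdh, which passes the electrons of the dehydrogenases to ubiquinone, rose by 0.81 in OXP (limma adjusted p = 9.92e-05). Echs1, Acad9 and Etfdh, like the genes given as at or below background, were chosen after their values were seen.

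Among 5 other genes of carnitine handling, 2 rose in both drug groups and none was called in STS. Crat, the carnitine acetyltransferase, rose by 0.38 in OXP (limma adjusted p = 0.0256) and 0.51 in STS+OXP (limma adjusted p = 0.00415). Slc22a5, the carnitine importer of the plasma membrane, rose by 0.40 (limma adjusted p = 0.00648) and 0.44 (limma adjusted p = 0.00328). Cpt1b, the muscle form of carnitine palmitoyltransferase 1, was at or below the background level on all 12 arrays.

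Fatty acid uptake and activation are the steps before the shuttle. Of 15 genes measured, 5 rose and 2 fell in STS, 4 rose and 1 fell in OXP, and 2 rose and 1 fell in STS+OXP. Slc27a1, a fatty acid transport protein, fell in STS (-0.67, limma adjusted p = 0.00124) and rose in OXP by 0.42 (limma adjusted p = 0.0128), with 0.29 in STS+OXP (limma adjusted p = 0.0828). Acsl3, a long-chain acyl-CoA synthetase, rose by 0.72 in STS (limma adjusted p = 0.0396). The lipid chaperone Fabp4 was not above background in CTR and was at least 1.38-fold higher in STS, 1.25-fold in OXP and 1.27-fold in STS+OXP (limma adjusted p between 0.000281 and 0.000334). Such a bound sets the mean of the brighter group against the background level, or the gene's own value where that is higher, on the dim arrays.

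**Figure D4:**
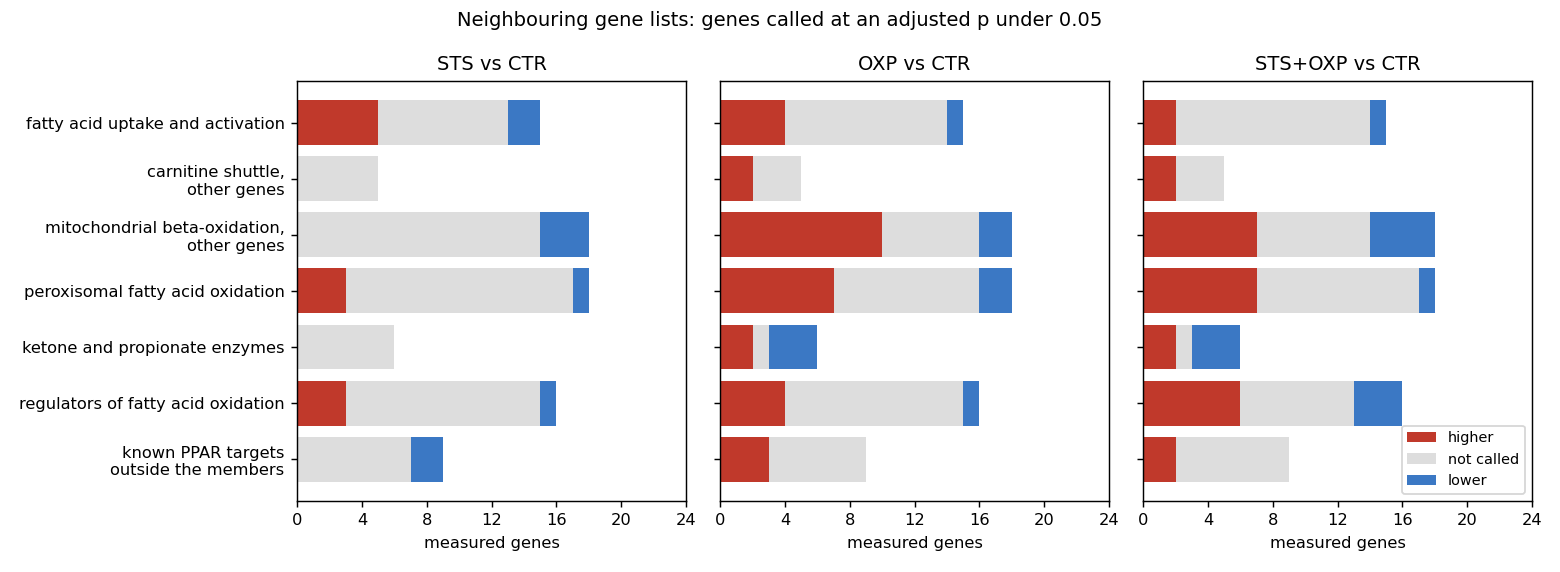
Number of measured genes (horizontal axis) of 7 gene lists around the members that were called higher (red) or lower (blue) or were not called (grey) by limma at an adjusted p under 0.05 in STS, OXP and STS+OXP compared with CTR. The other genes listed for mitochondrial beta-oxidation have 10 higher and 2 lower in OXP, and 0 higher and 3 lower in STS.

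Peroxisomes shorten very long and branched chains with enzymes of their own. Of 18 genes measured, 3 rose and 1 fell in STS, 7 rose and 2 fell in OXP, and 7 rose and 1 fell in STS+OXP. Phyh, which starts the oxidation of branched phytanic acid, had the largest changes of the list, by 0.95 in STS (limma adjusted p = 3.65e-05), 1.77 in OXP (3.40-fold, limma adjusted p = 2.64e-08) and 1.57 in STS+OXP, and its interaction was -1.15 (limma adjusted p = 0.000329). Pecr, a peroxisomal enoyl-CoA reductase of chain elongation, fell in all 3 (-0.56, -0.87 and -1.04), and was above background on 2 of 3 arrays in each drug group. Decr2, the peroxisomal dienoyl-CoA reductase, rose by 0.78 in OXP (limma adjusted p = 0.00724) and 0.92 in STS+OXP (limma adjusted p = 0.00246), but was above background on 1 of 3 CTR arrays, so the size of these rises is uncertain.

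For the enzymes that use the end products of oxidation, 6 of 11 listed for ketone bodies and propionate had a probe set, and in each drug group 2 rose and 3 fell. Pcca, a subunit of propionyl-CoA carboxylase, fell in OXP (-0.98, limma adjusted p = 2.69e-05) and in STS+OXP (-1.06, limma adjusted p = 1.38e-05). Mmut, which acts later in the same route, rose by 0.64 and 0.41. Bdh2 was not above background in CTR and was at least 1.42-fold higher in OXP and 1.62-fold higher in STS+OXP.

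Regulators were followed through 16 measured genes, of which 3 rose and 1 fell in STS, 4 rose and 1 fell in OXP, and 6 rose and 3 fell in STS+OXP. Lpin1, a phosphatidate phosphatase that also acts as a coactivator of PPAR alpha, rose in all 3, by 1.21 in STS (limma adjusted p = 0.00034), 1.05 in OXP (limma adjusted p = 0.000341) and 1.48 in STS+OXP (limma adjusted p = 1.68e-05). Acaca makes malonyl-CoA, the inhibitor of carnitine palmitoyltransferase 1, and it rose by 1.01 in STS (limma adjusted p = 0.00126) and 0.67 in STS+OXP (limma adjusted p = 0.00915), with -0.09 in OXP (limma adjusted p = 0.775). Prkab2, a subunit of the AMP-activated kinase, rose by 0.50 and 0.54 in the 2 drug groups. Of the other listed subunits of this kinase, Prkag2 (-0.37, limma adjusted p = 0.0106) and Prkab1 (-0.23, limma adjusted p = 0.0472) fell in STS+OXP. None of those others was called in OXP. Ppara, Pparg and Acacb were at or below background on all 12 arrays. Ppard was close to background, but not at or below it throughout any group. It rose by 0.25 in OXP (limma adjusted p = 0.0478) and 0.27 in STS+OXP (limma adjusted p = 0.0401). Ppargc1b rose in STS (0.35) and fell in OXP (-0.49) and STS+OXP (-0.37). Esrra fell in STS (-0.52) and rose in STS+OXP (0.49), with an interaction of 0.77 (limma adjusted p = 0.0171). Ppard, Ppargc1b, Esrra, Prkag2 and Prkab1 were likewise chosen after their values were seen.

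Of 9 measured PPAR targets outside the members, 3 rose in OXP, 2 rose in STS+OXP and 2 fell in STS. Plin2, the coat protein of lipid droplets, fell in STS (-0.52, limma adjusted p = 0.00296) and rose by 1.10 in OXP (limma adjusted p = 1.57e-06) and 0.83 in STS+OXP (limma adjusted p = 2.19e-05). Acot1, a cytosolic thioesterase, rose by 0.54 in OXP (limma adjusted p = 0.00925). Pdk4, a widely used readout of PPAR activity in fasting, was at or below background on all 12 arrays. Decr1 belongs to this list as well as to the mitochondrial one. In STS+OXP compared with OXP no gene of any of the 7 lists was called, where 0.00585% of all genes were called higher and 0.00585% lower. With so few calls over all genes, the absence of calls says little about the lists.

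The cells were checked against markers of the tissues that burn fat. Of the muscle markers, 4 of 6 measured were at or below background on every array, as were 2 of 4 for liver (Ttr and Fabp1) and both measured of 4 listed for fat (Adipoq and Lep). Summed signals of these lists on the log2 scale ranged from 5.57 to 5.74 for muscle without the drug and from 5.53 to 5.68 with it, and from 5.10 to 5.36 for liver over all arrays. In OXP compared with CTR 1 muscle marker and 1 leukocyte marker were called, where 17.5% of all genes were called higher and 13.9% lower. No marker of these 2 lists was called in STS+OXP compared with CTR. Of 8 epithelial markers, Krt18, Krt19, Cdh1, Vil1 and Cdx1 were at or below background on every array, Epcam and Cdx2 were above it, and 5 of 6 mesenchymal markers were above it. Vim was steady at 12.1 to 12.3, while 3 mesenchymal markers were called in each drug group compared with CTR. Cdh2 fell (-1.68 in OXP and -2.05 in STS+OXP), and Col3a1 (0.72 and 0.98) and Fn1 (0.34 and 0.63) rose. Col3a1 and Fn1 were highest with starvation alone, where every STS array lay above every array of the other groups. Col3a1 read 10.78 to 10.84 in STS and 9.59 to 9.69 in CTR. Fn1 read 10.64 to 10.76 in STS and 9.51 to 9.59 in CTR. The summed mesenchymal signal was 12.65 to 12.75 in CTR, 13.03 to 13.08 in STS, 12.78 to 12.86 in OXP and 12.80 to 12.86 in STS+OXP. Among 6 measured leukocyte markers Ptprc and Lyz2 were at or below background throughout, Cd3e was above it on every array (4.18 to 4.51), and the macrophage gene Cd68 read 5.22, 3.07 and 4.92 on OXP replicates 1, 2 and 3 and 2.87 to 3.42 elsewhere. The summed leukocyte signal was 5.96 to 6.62 in OXP, 6.02 to 6.14 in CTR, 5.95 to 6.02 in STS and 6.04 to 6.09 in STS+OXP. The part of these markers and of RNA quality in the members' differences was not tested. RNA came from whole cultures, so a change within every cell and a change in the share of cells with the transcript cannot be told apart.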

How the data were processed

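RNA of CT26 cells was hybridised to Affymetrix mouse arrays, 3 for each of 4 groups, and groups were taken from the sample titles. The deposited values are log2 signals of 45141 probe sets that the authors normalized by RMA. The submitters' processing notes name R 3.02. RMA corrects background and equalises the distribution of values between arrays, so a change of all genes together is not seen. The annotation gave 1 symbol to 28898 probe sets, several to 551 and none to 15588, and symbols were not taken from those with several. For each gene the probe set with the highest mean was kept (17097 genes). limma 3.58.1 in R 4.3.3 was fitted to 4 group means over 12 arrays (two-sided, residual degrees of freedom 8), with Benjamini-Hochberg adjustment over all genes and calls at an adjusted p under 0.05. The fit was tested on simulated data. The number of arrays limits the precision. The members and lists were chosen with earlier results of these data known. Of each list up to 3 genes are named, those with the largest change among the genes called in any comparison with CTR, and for each member the 2 genes with the highest Pearson's r. Same-numbered arrays did not deviate together, so the replicate number was not used. Scaling, probe set choice, filter, spread, weights, test and arrays left out were varied. Promoters and positions are from RefSeq, GRCm38.p6.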

Additional observations from a re-analysis of the deposited data

Results flagged for a closer look

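The STS effect on Acadl, the long-chain acyl-CoA dehydrogenase, differed between cells with and without oxaliplatin. The difference of the effects was -0.58 on the log2 scale, tested by the interaction in limma (adjusted p = 0.0234, n = 3 arrays per group). Without the drug the 3 STS arrays lay above the 3 CTR arrays, and with it the 3 STS+OXP arrays lay below the 3 OXP arrays. Neither single effect passed the threshold (0.16, limma adjusted p = 0.342, and -0.42, limma adjusted p = 0.257). The interaction lost its call without any one of CTR replicates 1 and 3, STS replicates 1 and 3, or STS+OXP replicates 2 and 3. It also lost it when the gene's probe sets were averaged (-0.25, limma adjusted p = 0.141).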

How the results depend on the processing

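Over 23 settings and 1088 refits of single members, 1009 kept their side of the threshold (11 of these, never called, changed sign), 33 lost a call, 46 gained one and 0 turned a call around. In STS vs CTR, with none called, 1 member was called after median centring and 1 with genes above the median signal, 3 with array quality weights, 2 with the arrays of the groups compared, 2 without OXP replicates 1 and 2, and 0 to 1 with one array left out. Without both OXP replicates 1 and 2 the OXP group is a single array, assumed to vary like the other groups. In OXP vs CTR, with 7 called, the test with unequal variances called 3, and leaving out one array called 7 each time. The share of all genes called by the unequal-variance test is not given. In STS+OXP vs CTR, with 5 called, array quality weights, the arrays of the groups compared and leaving out OXP replicate 1 each called 7, Cpt2 and Hadhb added, and one array left out gave 4 to 7. In STS+OXP vs OXP, with none called, 2 members were called without OXP replicates 1 and 2 and 0 to 2 with one array left out. For the interaction, with 1 called, median centring called 3, genes above the median signal 3, trended and robust spread 2, array quality weights 2, without OXP replicates 1 and 2 it was 2, and one array left out gave 0 to 3. The cause was not tested. The replicate number as a block took away 1 call, that of Acadm in STS+OXP vs STS (adjusted p = 0.0735). Correlations of same-numbered deviations ran from -0.199 to 0.102 over 18 pairs. They gave no ground to pair arrays by number, but cannot show whether same-numbered arrays share a culture or a run.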
